A study of Mus musculus with 6 samples.

Results

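The genes described here are 43 mouse genes of DNA repair and of the damage checkpoint, taken by name as known members of 7 groups: homologous recombination, end resection with the MRN complex, the Fanconi anemia pathway, mismatch repair, the damage checkpoint, base excision with single-strand break repair, and non-homologous end joining. Earlier results of these data were known when the list was proposed, so its counts are a description and not an independent test. Of the 43 genes, 41 had a probe set annotated with 1 symbol on the Affymetrix mouse 430 2.0 array, and 37 of these reached the minimum signal for testing, among 12518 genes tested in all. They were compared between 3 acinar-type mammary tumors of *K14-cre*; *Apc* CKO/+ mice and 3 age-matched mammary glands of mice without *cre*, with 1 array per sample. In the tumor-bearing mice the keratin 14 promoter drives Cre recombinase in basal and progenitor cells of the epithelium, where it deletes an exon of the floxed *Apc* copy, and the study describes the 3 tumors as carrying that deletion beside a truncating mutation of the remaining *Apc* allele. The tumors came from mice of mixed background. Both groups are labelled as biological replicates, yet no source used here ties each sample to its own animal, so the p-values measure only the spread between these samples.

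Breaks across both DNA strands are found by the MRN complex, trimmed by nucleases and repaired on the sister copy by homologous recombination, a route open after DNA has been replicated, whereas non-homologous end joining rejoins ends directly and works throughout the cell cycle. The Fanconi anemia proteins undo crosslinks that block replication forks, mismatch repair removes copying errors, and base excision repair replaces single damaged bases. The checkpoint kinases sense stalled forks and breaks and hold the cell cycle while repair proceeds. In the mammary gland, inherited loss of *BRCA1*, *BRCA2*, *PALB2* or *CHEK2* raises the risk of breast cancer in humans.

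Values are MAS 5.0 signals, a linear intensity that the authors scaled to the same target on each array. Signals under 50 were raised to 50 before log2 was taken, and a gene was tested where 3 or more of the 6 arrays had 100 or above. A gene is called higher or lower in tumors where the p of limma, adjusted over all 12518 genes, is under 0.05. The median signal was 124.4 to 138.3 on the tumor arrays and 132.7 to 170.7 on the control arrays. Over all genes, 2045 (16.3%) were called higher and 2098 (16.8%) lower in tumors, and the median log2 fold change was 0.07. With the arrays set to equal medians, the split was 3026 higher and 1665 lower and the median of all genes was 0.31, so fold changes near 0 depend on the scaling. The tissue makeup differed too. The summed signal of 8 pan-epithelial markers was 81820 to 105820 in tumors and 11767 to 27124 in control glands, with all 8 higher. The 7 adipocyte markers summed to 1556 to 11105 in tumors and 121604 to 161215 in control glands, the 7 fibroblast markers to 2275 to 14434 in tumors and 62515 to 76515 in control glands, and all 14 were lower in tumors. None of these markers was below 50 in every tumor. In such bulk samples, fewer cells of a type and less RNA per cell cannot be told apart, and the part of tissue makeup in the changes below was not tested.

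Of the 37 repair and checkpoint genes tested, 19 were higher in tumors (51.4%, beside 16.3% of all genes) and 0 were lower (16.8% of all genes) by limma. At an unadjusted p under 0.05 the counts were 22 higher and 0 lower, and all genes were not counted at that limit. The lowest tumor exceeded the highest control gland for 22 of them (27.1% of all genes did so), and for 0 of them did every tumor lie below every control gland (23.1% of all genes). The median log2 fold change of the 37 was 0.83. Of the 19 genes that were higher, 15 were past 2-fold, beside 1329 of the 12518 genes tested. All genes were not counted at 4-fold, which 6 members passed: *Rad51ap1*, *Exo1*, *H2afx*, *Brca1*, *Chek1* and *Clspn*. The filter takes part in these counts, since *Exo1*, *Fancd2* and *Brip1* passed it through the tumor arrays alone. Among the 26 tested genes with a signal of at least 100 in every control gland, 9 were higher, beside 14.7% of the 11194 genes of which the same was true. By group, 6 of 7 homologous recombination genes, 4 of 7 checkpoint genes, 5 of 9 Fanconi anemia genes, 2 of 4 resection and MRN genes, 1 of 3 base excision and single-strand break genes, 1 of 4 end joining genes and 0 of 3 mismatch repair genes were higher.

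**Figure D1:**
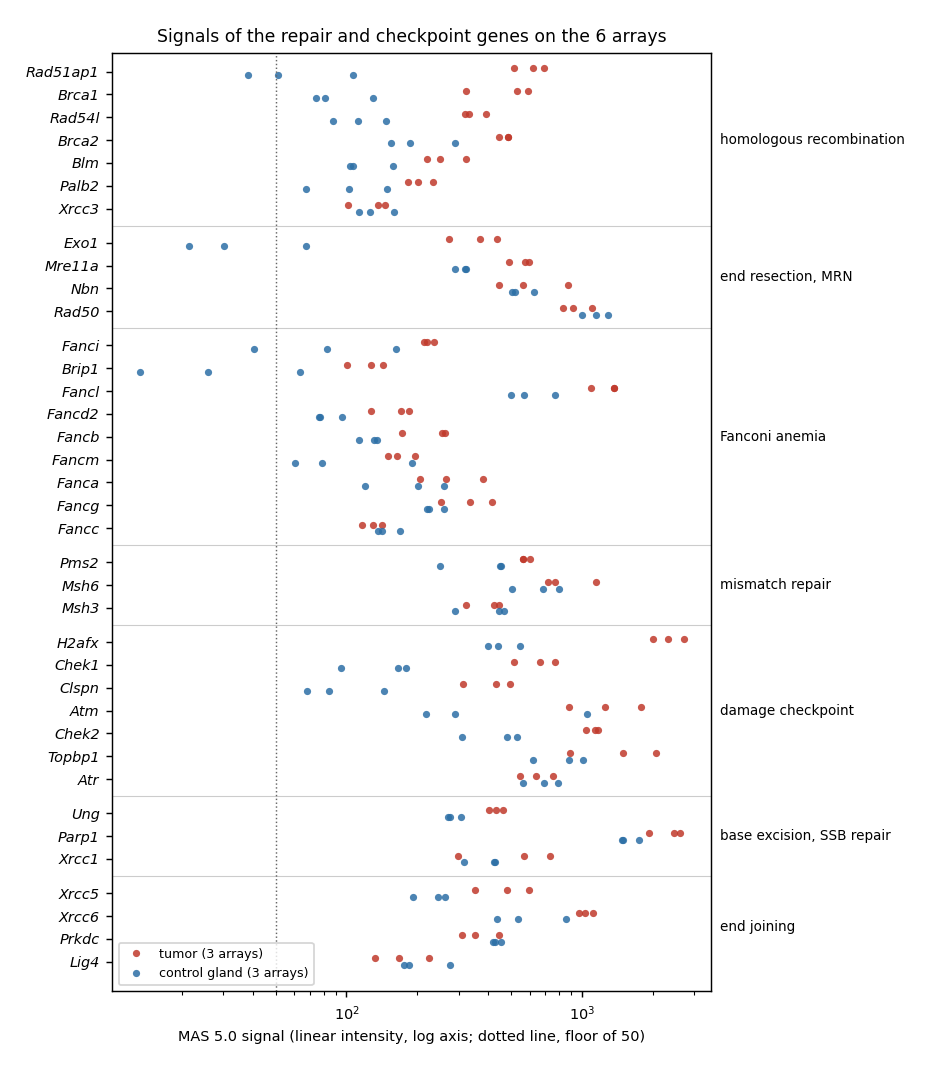
Signal of each of the 37 tested genes on the 6 arrays, with 3 tumors in red above 3 control glands in blue in each row. The horizontal axis is the MAS 5.0 signal on a log scale, the dotted line marks the floor of 50, and genes are grouped by pathway. For 22 genes the red and blue points do not overlap, and in each of these the tumors are higher. Distances between points within a row can be compared, whereas levels of different genes cannot.

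Within the damage checkpoint, *Chek1*, *Clspn*, *H2afx* and *Chek2* were higher in tumors, whereas *Atr*, *Topbp1* and *Atm* did not pass the test. *Chek1*, the effector kinase that answers stalled replication forks, had signals of 667.4, 765.6 and 514.0 in tumors 1 to 3, against 178.2, 94.4 and 164.8 in control glands 1 to 3. The groups did not overlap, and the log2 fold change was 2.19 (SE 0.31, adjusted p = 0.00227). *Clspn*, the adaptor Claspin through which Atr activates Chek1, had 493.5, 431.1 and 313.9 in tumors, against 145.0, 67.8 and 84.5 in control glands. Its log2 fold change was 2.11 (SE 0.33, adjusted p = 0.00365), with every tumor above every control gland. *H2afx*, the histone variant phosphorylated around breaks (annotated as *H2ax*), had 2722, 2014 and 2320 in tumors, against 547.1, 400.1 and 439.2 in control glands. With a log2 fold change of 2.35 (SE 0.23, adjusted p = 0.000566), it had the smallest standard error among the genes past 4-fold. *Chek2*, the effector kinase downstream of Atm, had 1176, 1038 and 1143 in tumors, against 532.9, 308.9 and 480.0 in control glands. It rose by 1.38 on the log2 scale (SE 0.26, adjusted p = 0.00699).

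The sensor kinases upstream of these genes, and Topbp1 that acts with Atr, gave other values. *Atr*, which responds to single-stranded DNA at forks, had 755.6, 638.7 and 546.7 in tumors, against 792.6, 561.7 and 690.1 in control glands. The groups overlapped, with a log2 fold change of -0.07 (95% CI -0.62 to 0.47, adjusted p = 0.832). With the arrays set to equal medians this value was 0.16. *Topbp1*, which activates Atr, had 2063, 1502 and 893.3 in tumors, against 1016, 622.4 and 883.0 in control glands. Its log2 fold change of 0.77 (95% CI -0.06 to 1.60, adjusted p = 0.132) did not pass, with tumor 3 between control glands 1 and 3, and was 1.10 without tumor 3 (adjusted p = 0.0459). *Atm*, the kinase activated by breaks, had 1251, 1783 and 881.7 in tumors, against 1048, 218.6 and 288.1 in control glands. Control gland 1 lay inside the range of the tumors, and the log2 fold change of 1.63 (SE 0.59) had an adjusted p of 0.0680. Without control gland 1 it was 2.32 (adjusted p = 0.0075). The same control gland had the highest summed signal of 4 lymphocyte markers (3 of them lower in tumors), 14112, beside 2297 and 5445 in control glands 2 and 3 and 811 to 1427 in tumors, and its part in the *Atm* value was not tested. A second probe set of *Atm* had 657.4, 749.0 and 573.3 in tumors, against 761.8, 426.7 and 572.7 in control glands, a log2 difference of 0.20.

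In end resection, *Exo1* and *Mre11a* were higher in tumors, and the other subunits of the MRN complex did not pass. *Exo1*, the exonuclease that extends resected ends and also acts in mismatch repair, had 436.8, 370.0 and 272.1 in tumors, against 21.5, 30.3 and 67.1 in control glands. Its log2 fold change of 2.68 (SE 0.26, adjusted p = 0.000541) depends on the floor because control glands 1 and 2 lay under it, and was 3.32 with a floor of 16 and 1.82 with a floor of 100. *Mre11a*, the nuclease subunit of MRN, had 491.7, 574.9 and 596.9 in tumors, against 323.1, 289.2 and 320.0 in control glands. It rose by 0.83 on the log2 scale (SE 0.20, adjusted p = 0.0171). *Rad50*, the ATPase that bridges DNA ends, had 1101, 915.0 and 834.5 in tumors, against 1001, 1295 and 1146 in control glands, a log2 fold change of -0.27 (95% CI -0.78 to 0.23, adjusted p = 0.368). *Nbn*, the subunit that recruits Atm, had 870.5, 559.9 and 442.7 in tumors, against 518.1, 503.6 and 628.6 in control glands, with a log2 fold change of 0.13 (95% CI -0.54 to 0.81). The 3 subunits of the complex thus gave 1 call, and the intervals of *Rad50* and *Nbn* include 0.

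Homologous recombination held the gene with the largest change of the list, and 6 of its 7 tested genes were higher in tumors. *Rad51ap1*, which stimulates strand invasion, had 690.6, 517.1 and 623.1 in tumors, against 51.0, 38.3 and 106.1 in control glands. The lowest tumor lay above the highest control gland, and the log2 fold change was 3.23 (SE 0.33, adjusted p = 0.000707). *Brca1*, the ubiquitin ligase that promotes resection and recombination, had 590.1, 530.3 and 321.7 in tumors, against 81.4, 74.5 and 129.1 in control glands. Its log2 fold change was 2.34 (SE 0.33, adjusted p = 0.00222), with tumor 3 the lowest of the tumors. *Rad54l*, a motor protein that remodels DNA during strand exchange, had 390.4, 330.1 and 319.2 in tumors, against 111.4, 87.7 and 147.0 in control glands. It rose by 1.61 on the log2 scale (SE 0.25, adjusted p = 0.00343).

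The other 3 recombination genes that were higher had smaller changes, a difference between genes that was not tested. *Brca2*, a mediator of strand exchange, had 483.7, 443.2 and 485.6 in tumors, against 186.1, 154.4 and 288.8 in control glands, a log2 fold change of 1.22 (SE 0.27, adjusted p = 0.0137). *Palb2*, which joins Brca1 to Brca2, had 202.1, 182.5 and 233.8 in tumors, against 102.1, 67.4 and 149.2 in control glands, a log2 fold change of 1.02 (SE 0.31, adjusted p = 0.0416). *Blm*, a helicase that dissolves recombination intermediates, had 321.7, 250.5 and 220.0 in tumors, against 106.6, 103.8 and 158.3 in control glands, a log2 fold change of 1.11 (SE 0.26, adjusted p = 0.0166). All 3 genes separated the groups fully. *Xrcc3*, which acts in strand exchange, was the exception, with 136.1, 146.3 and 101.7 in tumors, against 159.7, 125.4 and 112.7 in control glands. Its log2 fold change was -0.05 (95% CI -0.62 to 0.52, adjusted p = 0.885) and was 0.19 with the arrays set to equal medians.

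**Figure D2:**
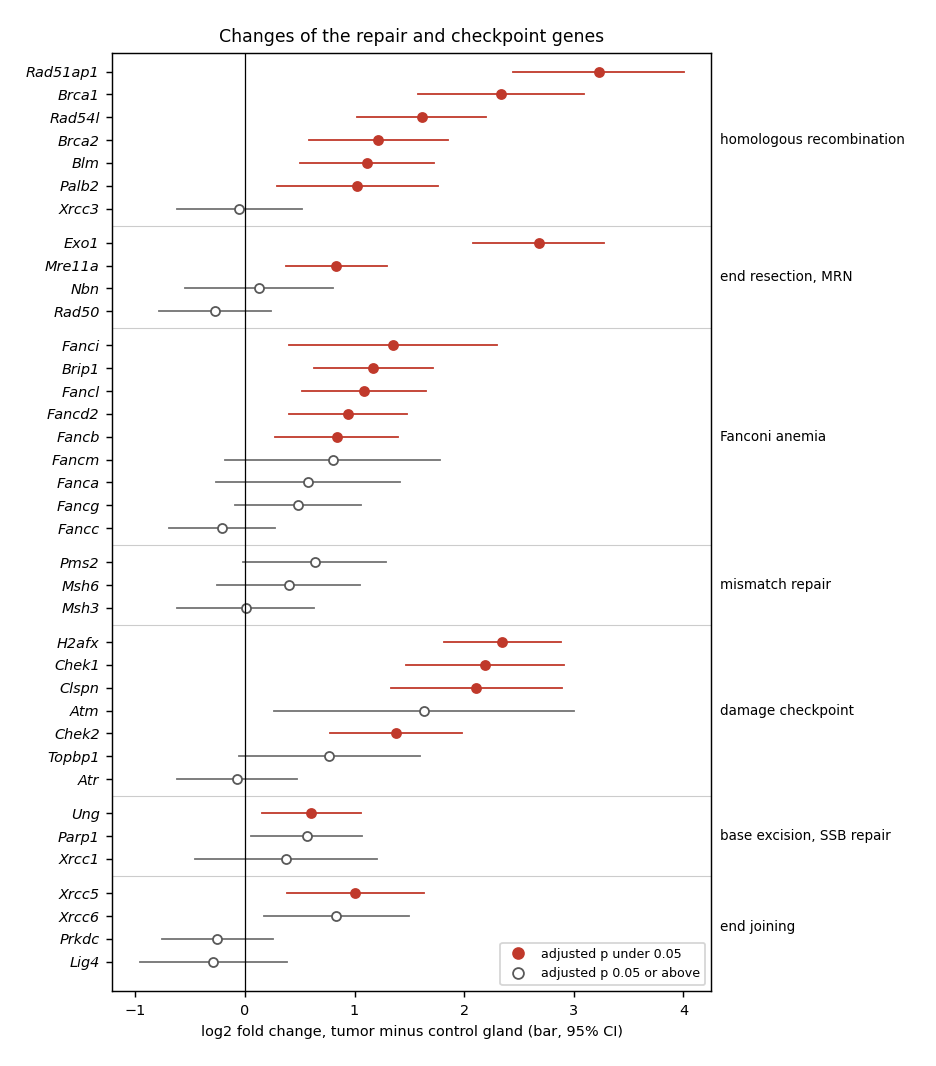
Log2 fold change, tumor minus control gland, of the 37 tested genes by pathway on the horizontal axis, with 95% confidence intervals from limma (3 arrays a group). The 19 filled red points passed an adjusted p of 0.05 and lie right of 0, and the 18 open points did not pass. *Rad51ap1* is farthest right at 3.23 and *Lig4* farthest left at -0.29.

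RefSeq promoter windows on GRCm38.p6, from 250 bases before to 50 bases after a gene's start, were on hand for 34 of the 41 annotated genes. They were read because 19 of the 37 tested members of the list were higher in tumors. Another reason was that E2F factors and CCAAT-binding factors are known regulators of genes used in replicating cells. The stretches of 250 bases before the start are shown for 3 recombination genes and the 2 effector kinases, in the direction of transcription, with capitals marking E2F letters (TTTCCCGC, TTTCGCGC, TTTGCCGC or TTTGGCGC, either strand) and the letters CCAAT (on the other strand ATTGG).
Rad51ap1, chr6:126939588-126939837, minus strand: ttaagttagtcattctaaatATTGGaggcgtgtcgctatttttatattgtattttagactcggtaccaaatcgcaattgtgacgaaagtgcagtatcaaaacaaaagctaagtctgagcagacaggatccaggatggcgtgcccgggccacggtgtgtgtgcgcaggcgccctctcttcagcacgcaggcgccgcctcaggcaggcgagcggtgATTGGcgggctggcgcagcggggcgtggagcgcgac
Brca1, chr11:101551956-101552205, minus strand: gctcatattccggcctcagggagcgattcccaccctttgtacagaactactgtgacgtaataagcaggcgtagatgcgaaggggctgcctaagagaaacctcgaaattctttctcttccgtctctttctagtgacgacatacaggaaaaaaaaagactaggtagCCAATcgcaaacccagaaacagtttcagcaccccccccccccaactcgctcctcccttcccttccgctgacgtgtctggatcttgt
Brca2, chr5:150522371-150522620, plus strand: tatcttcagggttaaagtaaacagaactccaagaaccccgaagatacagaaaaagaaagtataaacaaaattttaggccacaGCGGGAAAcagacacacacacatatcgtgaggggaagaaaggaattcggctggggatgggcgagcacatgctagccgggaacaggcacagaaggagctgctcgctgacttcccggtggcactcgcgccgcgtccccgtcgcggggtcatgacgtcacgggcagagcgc
Chek1, chr9:36726659-36726908, minus strand: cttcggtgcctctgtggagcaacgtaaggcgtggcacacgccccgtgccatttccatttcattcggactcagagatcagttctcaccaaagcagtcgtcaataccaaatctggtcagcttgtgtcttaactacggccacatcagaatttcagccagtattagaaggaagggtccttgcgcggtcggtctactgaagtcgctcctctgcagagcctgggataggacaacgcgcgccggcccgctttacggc
Chek2, chr5:110839733-110839982, plus strand: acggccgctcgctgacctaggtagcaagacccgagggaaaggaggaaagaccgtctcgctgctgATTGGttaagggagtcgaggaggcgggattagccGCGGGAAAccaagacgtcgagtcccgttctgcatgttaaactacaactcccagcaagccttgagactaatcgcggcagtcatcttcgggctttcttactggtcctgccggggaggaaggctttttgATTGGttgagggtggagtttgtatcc
*Brca2* and *Chek2* each hold 1 E2F match, with its first base 168 and 152 bases before the start, whereas the stretches of *Rad51ap1*, *Brca1* and *Chek1*, which rose by more than 4-fold, hold none. The start-proximal CCAAT letters lie 36 bases before the start in *Rad51ap1* and 26 in *Chek2*. E2F letters were found for 10 of the 34 genes (29.4%), beside 2.26% of 32851 windows of the same length. They were found for 3 of the 16 genes that were higher (*Brca2*, *Chek2* and *Clspn*, the last after the start) and for 5 of the 15 that did not pass (*Fancg*, *Msh3*, *Msh6*, *Topbp1* and *Xrcc6*). The CCAAT letters were found for 21 of the 34 genes (61.8%), beside 37.4% of all windows. The letters TTTGAA, the core of another cell cycle element, occurred for 1 of the 34 genes, beside 17.9% of all windows. The windows of these genes were richer in G and C, with a median of 60% beside 52.7% for all windows, and the part of base composition in these shares was not tested. A match is a description of letters and shows no binding.

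Of the 9 Fanconi anemia genes, all tested, *Fanci*, *Brip1*, *Fancl*, *Fancd2* and *Fancb* were higher in tumors. *Fancd2* and *Fanci* form the complex that is ubiquitinated at blocked forks. *Fancd2* had 184.4, 127.1 and 169.7 in tumors, against 95.3, 76.7 and 77.0 in control glands, a log2 fold change of 0.94 (SE 0.23, adjusted p = 0.0197). *Fanci* had 235.5, 220.4 and 213.8 in tumors, against 161.9, 82.5 and 40.5 in control glands, a log2 fold change of 1.35 (SE 0.41, adjusted p = 0.0390). The tumors of *Fanci* were close together, and its large standard error came with control glands that spanned 40.5 to 161.9. *Fancl*, the ubiquitin ligase of the pathway, had 1099, 1376 and 1370 in tumors, against 770.0, 498.2 and 567.4 in control glands, and rose by 1.08 on the log2 scale (adjusted p = 0.0138). *Fancb*, a core complex subunit that works beside Fancl, had 261.1, 255.6 and 172.1 in tumors, against 135.4, 113.5 and 131.5 in control glands, and rose by 0.84 (adjusted p = 0.0333).

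*Brip1*, a helicase that binds Brca1, had 143.2, 126.7 and 100.1 in tumors, against 13.2, 25.8 and 63.5 in control glands. Its signals were low throughout, and its log2 fold change was 1.17 (SE 0.23, adjusted p = 0.00840), 2.04 with a floor of 16 and 0.29 with a floor of 100, where the call was lost (adjusted p = 0.315). The other core complex genes and the anchor did not pass. *Fanca*, a core subunit, had 381.9, 204.8 and 264.1 in tumors, against 201.9, 119.3 and 259.8 in control glands, a log2 fold change of 0.57 (95% CI -0.27 to 1.42). *Fancg*, which binds Fanca, had 414.4, 252.8 and 334.4 in tumors, against 219.8, 223.4 and 260.1 in control glands, a log2 fold change of 0.49 (95% CI -0.09 to 1.06). For both genes, only tumor 1 and tumor 3 exceeded every control gland. *Fancm*, the translocase that brings the core complex to DNA, had 150.3, 163.6 and 194.6 in tumors, against 190.2, 60.7 and 78.4 in control glands, a log2 fold change of 0.80 (adjusted p = 0.180), and without control gland 1 it was 1.29 (adjusted p = 0.0187). *Fancc*, a core subunit, had 142.0, 129.2 and 115.9 in tumors, against 169.0, 142.1 and 136.7 in control glands, a log2 fold change of -0.21 (95% CI -0.69 to 0.27), and 0.028 with the arrays set to equal medians.

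Mismatch repair and the pathways for damaged bases and direct end joining gave 2 calls among 10 tested genes. That share was not far from the 16.3% of all genes called higher. *Msh6*, which recognizes mispaired bases, had 1148, 719.2 and 766.4 in tumors, against 682.5, 506.3 and 798.1 in control glands, a log2 fold change of 0.40 (95% CI -0.25 to 1.05). *Msh3*, its counterpart for larger loops, had 424.1, 323.2 and 443.4 in tumors, against 289.1, 445.6 and 466.8 in control glands, a log2 fold change of 0.01 (95% CI -0.62 to 0.63). *Pms2*, an endonuclease that nicks the new strand, had 559.8, 604.7 and 565.1 in tumors, against 448.2, 250.2 and 454.6 in control glands. Its groups did not overlap, yet the log2 fold change of 0.64 (95% CI -0.02 to 1.29, adjusted p = 0.119) did not pass, and it was called only with the arrays set to equal medians, at 0.87 (adjusted p = 0.0270). None of the 3 mismatch repair genes was thus called with the deposited scaling.

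*Ung*, the glycosylase that removes uracil from DNA, had 431.8, 402.2 and 460.5 in tumors, against 307.2, 274.8 and 269.1 in control glands. It rose by 0.61 on the log2 scale (SE 0.19, adjusted p = 0.0471), and leaving out any 1 of the 6 arrays ended the call. *Parp1*, which marks strand breaks with poly(ADP-ribose), had 2464, 1937 and 2620 in tumors, against 1748, 1482 and 1498 in control glands. Its groups did not overlap, but the log2 fold change of 0.56 (95% CI 0.06 to 1.07) had an adjusted p of 0.0820. *Xrcc1*, the scaffold of single-strand break repair, had 569.3, 299.1 and 734.6 in tumors, against 427.4, 316.3 and 424.3 in control glands, a log2 fold change of 0.37 (95% CI -0.45 to 1.20). Tumor 2 was the lowest of all 6 samples for *Xrcc1*, and tumor 3 the highest.

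In end joining, the Ku subunits lay higher in every tumor, and the kinase and ligase genes did not. *Xrcc5*, which encodes Ku80, had 350.3, 479.0 and 594.9 in tumors, against 262.5, 191.4 and 244.3 in control glands, and rose by 1.01 on the log2 scale (SE 0.27, adjusted p = 0.0248). *Xrcc6*, which encodes Ku70, had 974.3, 1117 and 1036 in tumors, against 854.3, 435.8 and 534.6 in control glands. Its log2 fold change of 0.83 (95% CI 0.17 to 1.50) missed the threshold at an adjusted p of 0.0577, and without control gland 1 it was 1.11 (adjusted p = 0.0239). *Prkdc*, the DNA-dependent kinase that Ku recruits, had 445.2, 351.5 and 309.2 in tumors, against 429.6, 453.7 and 418.1 in control glands, a log2 fold change of -0.25 (95% CI -0.76 to 0.26). *Lig4*, the ligase of this pathway, had 166.9, 223.6 and 131.6 in tumors, against 184.9, 275.4 and 175.5 in control glands, a log2 fold change of -0.29 (95% CI -0.96 to 0.39). Together with *Rad50*, these had the lowest point estimates of the list, and each interval includes 0.

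Of the 41 annotated genes, 4 stayed below the minimum signal and were not tested. *Rad54b*, a relative of Rad54l, had 143.7, 97.7 and 128.5 in tumors, against 5.4, 22.6 and 5.6 in control glands, at least 2.43-fold higher against the floor of 50. *Atrip*, the binding partner of Atr, had 155.8, 63.6 and 103.4 in tumors, against 54.0, 42.2 and 51.5 in control glands. *Rad51c*, which acts in strand exchange, had 11.7, 273.6 and 38.5 in tumors, against 43.8, 10.1 and 8.4 in control glands. Only tumor 2 stood out for *Rad51c*, whereas for *Rad54b* and *Atrip* each tumor exceeded each control gland. *Bard1*, the partner of Brca1, was below 50 on all 6 arrays, at 34.9, 7.4 and 8.2 in tumors, against 20.9, 6.8 and 21.8 in control glands. *Xrcc2*, of the same step, and *Rbbp8*, which encodes the resection factor CtIP, had no probe set with a single symbol and were not analysed here.

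Several calls were lost when 1 array was left out, and counts fell over all genes too. The count of 19 was 12, 11 and 13 without tumor 1, 2 and 3, and 18, 12 and 12 without control gland 1, 2 and 3. Over all genes, the 2045 higher became 1545, 1289 and 1273 without tumor 1, 2 and 3. Without control gland 1, 2 and 3 they became 1421, 1391 and 1241. Part of the loss among the 19 came from the filter. *Exo1*, *Brip1* and *Fancd2* fell below it and were not tested when any 1 tumor was left out. The call of *Palb2* was lost without tumor 1, 2 or 3 or control gland 1 or 2 (log2 fold change 0.73 to 1.11, adjusted p 0.078 to 0.112). That of *Fancb* was lost without tumor 1 or 2 or any control gland (0.73 to 0.89, adjusted p 0.0706 to 0.0925), and that of *Fanci* without any tumor or control gland 2 or 3 (0.95 to 1.38, adjusted p 0.0858 to 0.0970). For these 3 genes, the call was lost with arrays of either group left out. *Xrcc5* was not called without tumor 2 or 3 or control gland 2 or 3 (0.83 to 1.05, adjusted p 0.0666 to 0.0720). *Ung* was at 0.56 to 0.66 with any 1 array left out (adjusted p 0.0705 to 0.151). The other losses came without control glands. *Blm* was not called without control gland 1 or 2 (1.01 and 1.02, adjusted p 0.0513 to 0.0558), *Fancd2* without control gland 2 or 3 (0.89, adjusted p 0.0556 to 0.0737), and *Mre11a* and *Fancl* without control gland 3 (0.85 with adjusted p = 0.0590, and 1.04 with adjusted p = 0.0535). These genes kept their direction in each fit that tested them. *Brca1*, *Brca2*, *Rad51ap1*, *Rad54l*, *Chek1*, *Chek2*, *Clspn* and *H2afx*, 8 genes, were called with each of the 6 arrays left out in turn, and *Exo1* and *Brip1* with each control gland left out.

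For 12 tested genes more than 1 probe set passed the filter, 30 probe sets in all, and these did not always show the same change. All 3 probe sets of *Rad51ap1* were higher in tumors, at log2 differences of 3.23, 2.49 and 1.73, and both of *Chek1* were, at 2.19 and 2.01. *Brca1* had a second probe set with 135.3, 153.5 and 91.2 in tumors, against 180.0, 73.9 and 109.8 in control glands, a log2 difference of 0.12 (SE 0.37), so the change of *Brca1* rests on 1 of its probe sets past the filter. Another *Brca1* probe set, below the filter, had 163.7, 108.0 and 73.1 in tumors, against 35.3, 17.6 and 33.2 in control glands, each tumor above each control gland. The 4 probe sets of *Parp1* lay between 0.42 and 0.56, with none called. The sign differed between probe sets of *Mre11a*, *Fancc*, *Pms2* and *Atr*. The second *Mre11a* probe set had a log2 difference of -0.03 (SE 0.28), so the call of *Mre11a* rests on 1 of its 2 probe sets. It was lost with the mean of a gene's probe sets. A *Fancc* probe set other than the one used had 58.2, 99.3 and 9.8 in tumors, against 130.3, 134.5 and 123.5 in control glands, a log2 difference of -0.97 with an adjusted p of 0.0422 over all probe sets kept by limma.

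**Figure D3:**
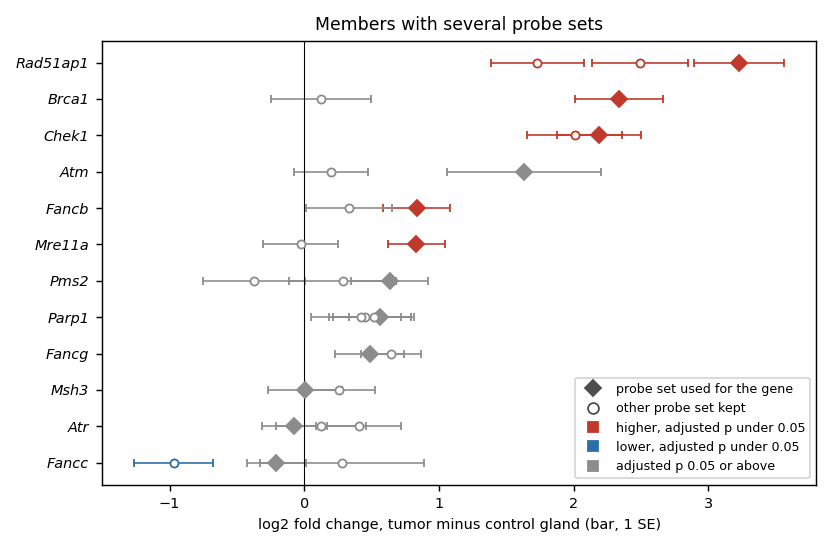
Log2 fold change, tumor minus control gland, of every probe set past the filter for the 12 genes with more than 1, with bars of 1 SE (3 arrays a group). Diamonds mark the probe set used for the gene and open circles the others, red is higher and blue lower in tumors at an adjusted p under 0.05 over all probe sets, and grey did not pass. The points of *Rad51ap1* and *Chek1* all lie right of 1.5, whereas those of *Brca1* and *Atm* lie far apart.

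The tumors did not share 1 order across the list. Among the 19 genes that were higher, tumor 1 had the highest signal for 12, tumor 3 for 5 and tumor 2 for 2. Tumor 1 was highest for 63.2% of these genes, beside 24.1% of the 2045 genes higher in tumors overall. Among the 14 proliferation genes that were higher, tumor 1 was the highest tumor for 5 and the lowest for 4. Control gland 2 had the lowest control signal for 15 of the 19 genes (78.9%, beside 57.1% of all genes higher in tumors and 44% of all genes tested). Its array median was the lowest of the controls, 132.7 beside 170.7 and 162.2 in control glands 1 and 3. It also had the lowest summed pan-epithelial signal, 11767. Its summed skeletal muscle signal was the highest, 134077, beside 6261 and 54365 in control glands 1 and 3. The part of the array median and of these sums in its low values was not tested.

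Further repair genes were tested in the same way. Of 71 such genes, in 8 lists, 19 were higher and 0 lower in tumors by limma, with a median log2 fold change of 0.49 (over all genes 16.3% were higher and 16.8% lower), and 8 to 12 were higher with any 1 of the 6 arrays left out. The lowest tumor exceeded the highest control gland for 34 of them, and every tumor lay below every control gland for 4, beside 27.1% and 23.1% of all genes. Base excision held the most calls, 7 of 13 further genes, led by *Lig3*, the ligase that acts with Xrcc1. *Lig3* had 2355, 3273 and 3115 in tumors, against 833.5, 589.1 and 761.6 in control glands, a log2 fold change of 2.00 (adjusted p = 0.00127). *Polb*, the gap-filling polymerase of the same route, rose by 1.60 (adjusted p = 0.00790) and *Neil3*, a glycosylase, by 1.55 (adjusted p = 0.0148). These enzymes act at successive steps of base excision. Among 6 further Fanconi anemia genes, 3 were higher, namely *Ube2t*, the conjugating enzyme of Fancl, at 2.17, *Usp1*, which removes ubiquitin from Fancd2, at 1.13, and *Fance*, a core subunit, at 1.06. Of 12 further checkpoint genes, 2 were higher: *Wee1*, the kinase that restrains Cdk1, at 1.25, and *Cdc25a*, the phosphatase that opposes it, at 1.02. The counts were 2 of 13 for homologous recombination (*Brcc3* and *Recql4*, both at 0.94), 3 of 14 for nucleotide excision, 1 of 4 for end joining (*Poll*, 1.18), 1 of 7 for translesion synthesis (*Polh*, 1.15) and 0 of 2 for mismatch repair. For homologous recombination, the checkpoint, nucleotide excision and translesion synthesis the shares of these further genes lay between 14.3% and 21.4%, near the 16.3% of all genes.

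Among 17 tested transcripts that p53 induces after damage, 1 was higher and 4 lower in tumors, beside 16.3% and 16.8% of all genes, so the share of lower genes was not far from that of all genes. The count of lower genes was 1 without tumor 2 or without control gland 3 and 2 without tumor 3 or without control gland 2. *Gadd45a*, a damage-induced growth arrest gene, had 237.0, 202.4 and 105.5 in tumors, against 665.3, 866.5 and 601.3 in control glands, a log2 fold change of -2.03 (adjusted p = 0.00459). *Pmaip1*, which encodes the cell death protein Noxa, changed by -1.43 on the log2 scale (adjusted p = 0.0217), with 95.8, 38.9 and 26.7 in tumors, against 186.5, 113.6 and 221.2 in control glands. Tumors 2 and 3 lay under the floor of 50, and the call was lost with a floor of 100 (-0.74, adjusted p = 0.0702) and without tumor 2 or 3 (-1.27, adjusted p = 0.0737 and 0.0684), and *Pmaip1* fell below the filter when any 1 control gland was left out. *Perp*, a p53 target that is also part of epithelial junctions, had 3887, 3272 and 3573 in tumors, against 684.9, 433.5 and 1471 in control glands, and rose by 2.23 (adjusted p = 0.00741). The pan-epithelial markers were higher too, and their part in the *Perp* value was not tested. Of 17 proliferation genes tested, 14 were higher, at a median of 2.77 over the list, and their part in the changes of the repair genes was not tested.

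**Figure D4:**
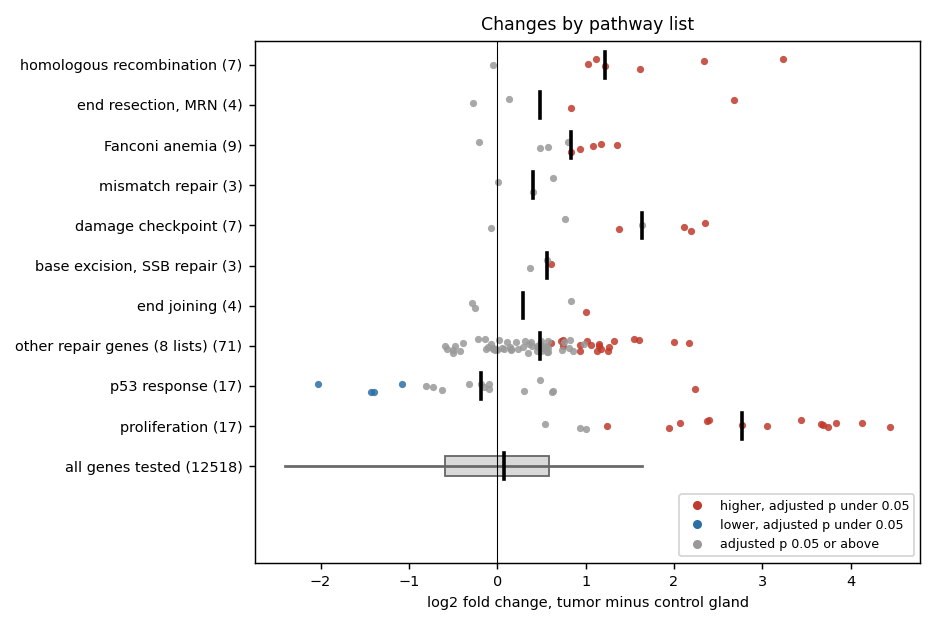
Log2 fold change, tumor minus control gland, of every tested gene of each list, with the number of genes in brackets and a black bar at the median. Red points are higher and blue points lower in tumors at an adjusted p under 0.05, grey points did not pass, and the box and line at the bottom give the 25th to 75th and 5th to 95th percentiles of all genes. The medians of the other repair genes and of the proliferation genes were 0.49 and 2.77. Between them lie homologous recombination (1.22), the checkpoint (1.63), Fanconi anemia (0.84) and base excision (0.56). Those of resection (0.48), mismatch repair (0.40) and end joining (0.29) lie below 0.49. The checkpoint median is the value of *Atm*, which did not pass.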

How the data were processed

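RNA of 3 tumors and 3 control glands was hybridized by the authors to 1 array each. The deposited values are MAS 5.0 signals, a linear intensity scaled by the authors to a target of 500 per array; the array number limits precision. Of 45101 probe sets, 64 controls were left out, 34945 carried 1 gene symbol, 932 several and 9160 none in the platform annotation, and 22492 named probe sets passed the filter. *H2afx* was found as *H2ax*. Where several probe sets of a gene passed, the one brightest on average (mean of log2 signals) stands for it. The 2-sided moderated test of limma 3.58.1 (R 4.3.3; lmFit, then eBayes) was used, with Benjamini-Hochberg adjustment. An exact permutation test of 3 against 3 cannot go below p = 0.1 and was not used. The script was tested on simulated data. The 43 members, the other lists and the alternatives were chosen with earlier results of these data known. All members may be named; of other lists, up to 3 called genes with the largest change, while their genes nearest to no change are given by count only.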

Additional observations from a re-analysis of the deposited data

How the results depend on the processing

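Of the 19 repair and checkpoint genes that were higher, 8 were called under all 19 alternatives: *Brca1*, *Brca2*, *Rad51ap1*, *Rad54l*, *Chek1*, *Chek2*, *Clspn* and *H2afx*. *Exo1* was called under the 16 that tested it. *Exo1*, *Brip1* and *Fancd2* fell below the filter when any 1 tumor was left out. Over 686 pairs of a gene and an alternative that tested it, 602 kept direction and call, 58 lost the call, 11 gained it and 15 changed sign, none of the last in a called gene. No member was called lower under any alternative. Beyond genes that left the filter, the cause of the changes below was not tested. Leaving out 1 array at a time gave 11 to 18 genes higher in place of 19, with 1 to 2 for resection, 1 to 5 for Fanconi anemia, 0 for base excision and 0 to 2 for end joining, a median of 0.73 to 1.02, and, over all genes, 1241 to 1545 higher and 1151 to 2012 lower. It gave 8 to 12 further repair genes higher in place of 19 and 1 to 4 p53 response genes lower in place of 4.

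The methods' t-test on linear signals (statistic of at least 4.5 in size, ratio of means of at least 2) called 11 members, 685 genes higher and 920 genes lower, 1 gene for resection, 2 for Fanconi anemia, 0 for base excision, 0 for end joining, 5 further repair genes and 1 p53 response gene lower, and after Benjamini-Hochberg adjustment 140 genes and 0 members. Equal array medians gave 25 members, 1 for mismatch repair, 2 for base excision, 2 for end joining, 30 further repair genes and a member median of 1.07. Quantile normalization gave 2 for end joining and a member median of 0.99. A limit of 2-fold gave 1329 genes higher, 1 for resection, 3 for Fanconi anemia and 0 for base excision. With no filter there were 3 for Fanconi anemia, 0 for end joining and 1 p53 response gene lower, and with a filter at 200 there were 2 for Fanconi anemia. The mean of a gene's probe sets gave 1 for resection, log2 of the signal plus 50 gave 0 for base excision, and a variance trend gave 0 for base excision and 2 for end joining.

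Signs changed for *Xrcc3* (0.18 with quantile normalization, 0.19 with equal medians, -0.16 to 0.11 with 1 array left out), *Fancc* (0.027 with quantile normalization, 0.028 with equal medians), *Nbn* (-0.14 to 0.35 with 1 array left out), *Msh3* (-0.21 to 0.15 with 1 array left out, -0.013 by the methods' t-test) and *Atr* (0.16 with equal medians, 0.15 with the mean of probe sets, -0.21 to 0.043 with 1 array left out).

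Tumors and control glands share replicate numbers, but no label says that the numbers pair them. Deviations of same-numbered samples from their group means correlated at -0.222, 0.0206 and 0.0379. With 3 arrays a group, such values cannot decide whether the samples are paired. With the replicate number as a block, 16 members, 1630 genes higher and 1860 lower were called, with 0 for base excision and 0 for end joining.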
